A study of Danio rerio with 17 samples.

Results

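Animal cells make cholesterol from acetyl-CoA through mevalonate, prenyl diphosphates, squalene and lanosterol, and take it up in lipoproteins through the LDL receptor. In mammals the transcription factor SREBP2 (gene srebf2) drives genes of both routes when sterols in the endoplasmic reticulum are low, its escort SCAP carries it to the Golgi for cleavage, and the INSIG proteins hold the complex back when sterols are high. In zebrafish embryos the yolk supplies lipid, and the yolk syncytial layer packs it into lipoproteins for the body. The genes described here are the enzymes of that route with its uptake and control genes. They were taken from a list of 28 zebrafish names by looking each one up in the count files. Of these, 27 were among the 15316 genes of the files under the listed name; scap was not analysed here.

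The libraries come from whole AB-line zebrafish embryos frozen at 72 hours post fertilization (hpf), 10 embryos to a pool. Embryos of the glucose group (6 pools) stood in 3% glucose from 24 hpf. Those of the FFA group (6 pools) received at 24 hpf a yolk injection of BODIPY-tagged lipid carried in canola oil (1 mg/ml), and those of the control group (5 pools) carry neither treatment in their titles. The sources used here do not say whether controls received an injection, and none of the pools had an inert sugar as osmotic control. The lipid therefore cannot be told apart from the injection, nor the sugar from its osmotic effect. Groups follow the sample titles. In 11 libraries, 6 titled glucose and 5 titled FFA, the treatment tag names another group, and the tags come close to exchanging the 2 treatments; if the tags are the right ones, most glucose values given here are FFA values and most FFA values are glucose values.

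The measure is the read count per gene, scaled to CPM, read counts relative to a library total adjusted by TMM, edgeR's scaling between libraries. Counts assigned to genes ran from 10208640 to 16745675 per library, and every listed gene passed the count filter, with 39 counts at the least (hsd17b7) in any library. A gene is called when its edgeR quasi-likelihood p, adjusted by Benjamini-Hochberg over the 13539 genes tested in a comparison, is under 0.05. Fold changes are on the log2 scale with an SE. For edgeR values this SE is derived from the test, as the absolute log2 fold change divided by the square root of the F statistic. The pools are whole embryos, so fewer cells of a type and less RNA per cell cannot be told apart. Markers of skeletal muscle, neurons, photoreceptors, glia, liver, intestine, exocrine pancreas, erythrocytes and yolk-related genes were all detected, and of the defining markers in the files gap43 alone was at 0 in every library.

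Glucose against control asks how embryos kept in sugar differ in their sterol genes. In glucose pools the enzymes of cholesterol synthesis lay slightly above control along most of the route, with 2 of them called higher, while the LDL receptor gene ldlra and the sterol reductase gene tm7sf2 were called lower. Of the 22 synthesis enzymes, counted with ggps1, which is off the sterol route, 21 had a fold change above 0, with a median of 0.27. Over all 27 genes the median was 0.24 and 22 lay above 0 (81.5%), where the median of all tested genes was -0.00309 and 49.4% lay above 0. The 2 genes called higher are 7.41% of the 27, and 5.87% of all tested genes were called higher. The 2 called lower are also 7.41%, and 5.02% of all genes were called lower. The called shares are near those of all genes. At an unadjusted p under 0.05 there were 14 of 27 genes, and 25.1% of all genes. For idi1, fdps, lbr and ldlra (4 of the 27, 14.8%) no glucose pool overlapped with a control pool, which held for 6.9% of all genes.

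**Figure D1:**
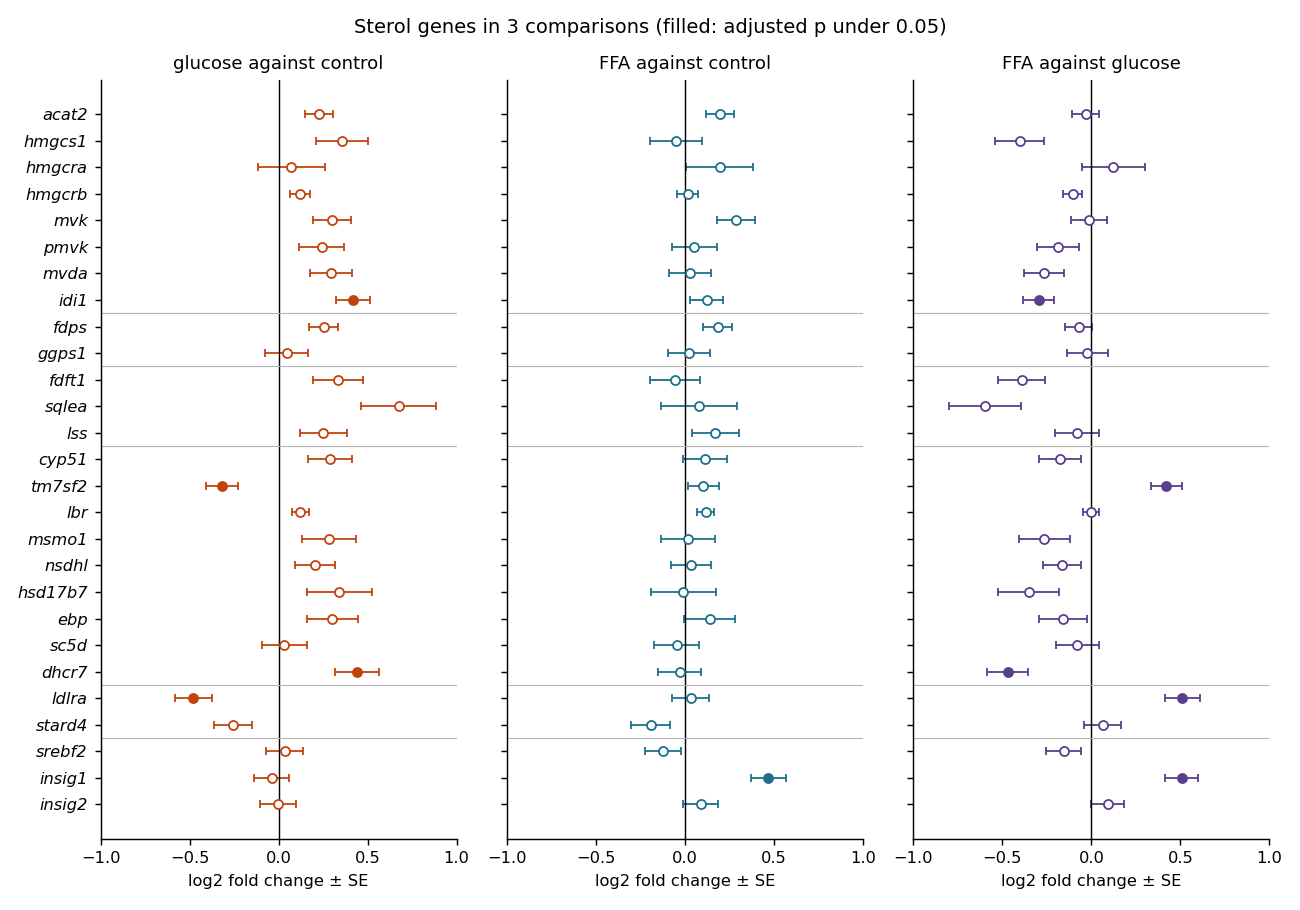
Log2 fold change with its SE for the 27 genes in glucose against control (left), FFA against control (middle) and FFA against glucose (right), in pathway order from top to bottom; filled points have an adjusted p under 0.05. In the left panel 21 of 22 synthesis enzymes lie right of 0 and tm7sf2 and ldlra lie left of it, and in the middle panel insig1 is the filled point at 0.47.

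FFA against control asks the same of embryos given lipid through the yolk. Here the synthesis enzymes lay close to control, and the regulator gene insig1 was the listed gene called, higher in FFA. The median fold change of the 27 genes was 0.05, against -0.00883 for all tested genes. Of the 27, 20 lay above 0 (74.1%), where 46.8% of all tested genes did. The single call is 3.7% of the list, where 1.1% of all genes were called higher. None of the 27 was called lower by edgeR, and 0.716% of all genes were; 5 of the 27 had an unadjusted p under 0.05, all genes together 10.2%, and DESeq2 and limma-voom also called insig1 alone. Groups did not overlap for 1 of the 27, acat2, against 2.3% of all genes. The comparison shares its controls with that of glucose.

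FFA against glucose sets the treatments side by side without the controls. Synthesis enzymes lay lower in FFA than in glucose, with idi1 and dhcr7 called lower, and tm7sf2, ldlra and insig1 were called higher in FFA. The median of the 27 genes was -0.11, against 0.000959 for all tested genes. Of the 27, 21 lay below 0 and 6 above it (22.2%), where 50.2% of all tested genes lay above 0. The 3 genes called higher are 11.1% of the list, with 7.98% of all genes called higher, and the 2 called lower are 7.41%, with 9% of all genes called lower. Groups did not overlap for tm7sf2, ldlra and insig1, 11.1% of the list, against 8.69% of all genes. The count called lower in FFA ran from 1 to 8 when 1 library was left out, and was 1 when just these 2 groups were fitted. Over all genes, both directions together, the fits that left out 1 library called 1654 to 2754, and the fit of these 2 groups 2483. The highest count of listed genes came without FFA replicate 6, the FFA pool with the highest enzyme levels. In that fit sqlea, hmgcs1, fdft1, msmo1, mvda and nsdhl were called lower in addition. Leaving out that pool lowers the FFA mean of most enzymes, so the added calls are no separate support for a difference. The share of all genes called lower in that fit is not given here.

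**Figure D2:**
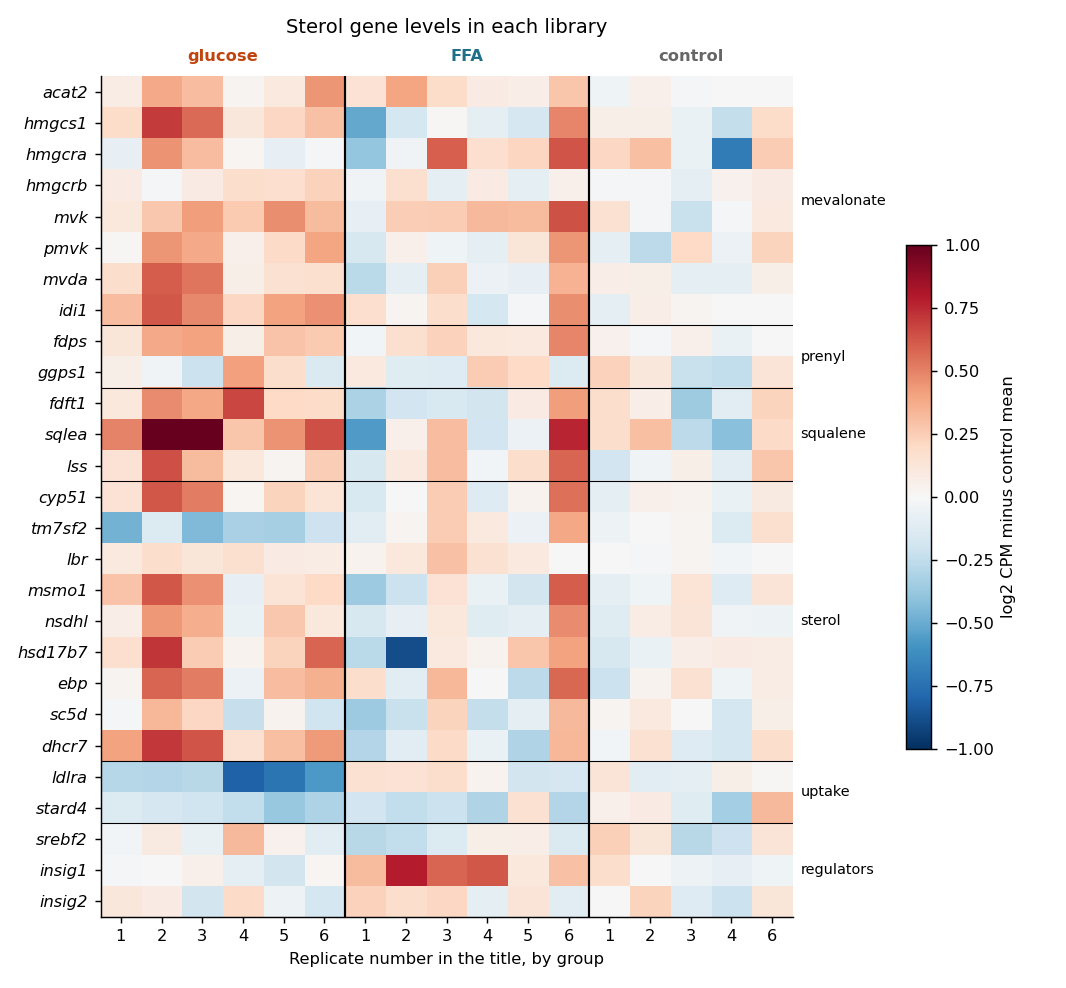
Each cell gives a gene's log2 CPM in 1 library minus the mean of the 5 control libraries; rows follow the pathway, columns are the replicate numbers of glucose, FFA and control pools, and colours end at 1 and -1. The red columns of glucose replicates 2 and 3 and of FFA replicate 6 run through most enzyme rows, while tm7sf2 and ldlra are blue in all 6 glucose pools and insig1 is red in the FFA pools.

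The first steps build mevalonate and turn it into isopentenyl units. Isopentenyl-diphosphate isomerase, encoded by idi1, converts isopentenyl diphosphate to its isomer for chain building. Its levels were 199, 247, 223, 184, 211 and 219 CPM in glucose replicates 1 to 6. They were 179, 163, 181, 142, 158 and 221 CPM in FFA replicates 1 to 6, and 150.4, 167, 163, 159.8 and 160.1 CPM in control replicates 1, 2, 3, 4 and 6. Every glucose pool was above every control pool, while FFA pools spread from below the controls to the level of glucose. The gene rose in glucose by 0.42 ± 0.0934 over control (1.34-fold, adjusted p = 0.00866), a call that stood without any single library. Against control its FFA value was 0.12 ± 0.0931 (adjusted p = 0.843). It was lower in FFA than in glucose by a log2 fold change of -0.30 ± 0.0886 (adjusted p = 0.0286). That last call ended without glucose replicates 2, 3 or 6 or FFA replicates 2, 4 or 5 (adjusted p 0.0559 to 0.0718) and when the fit held just these 2 groups (0.051).

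Upstream, the HMG-CoA synthase gene hmgcs1, which makes the substrate of the rate-limiting reductase, ran from 224 to 337 CPM in glucose and 146 to 291 CPM in FFA, against 176 to 236 CPM in control, with means of 266 ± 45.5, 201 ± 48.8 and 208 ± 22.5 CPM (SD, n = 6, 6 and 5). Its fold change in glucose was 0.35 ± 0.146 (adjusted p = 0.135), and the groups overlapped. The reductase itself is encoded by hmgcra and hmgcrb. Levels of hmgcra were 60.3, 87.1, 78.9, 64.5, 60.3 and 62.8 CPM in glucose, 48.8, 62.1, 96.5, 71.6, 74.1 and 98.5 CPM in FFA, and 73.5, 78.4, 60.9, 39.3 and 76.0 CPM in control. All 3 groups overlapped widely, with control replicate 4 lowest of the 17 pools and FFA replicate 6 highest. Its fold change was 0.07 ± 0.188 in glucose (adjusted p = 0.845) and 0.20 ± 0.188 in FFA (adjusted p = 0.907). Levels of hmgcrb were 53.8, 50.3, 53.6, 57.3, 57.0 and 59.4 CPM in glucose, 49.6, 56.7, 47.8, 53.8, 47.3 and 52.6 CPM in FFA, and 50.03, 50.3, 47.5, 52.2 and 53.6 CPM in control. These values lay close together in every group, with fold changes of 0.12 ± 0.0578 in glucose (adjusted p = 0.201) and 0.02 ± 0.0578 in FFA (adjusted p = 0.985). The 2 reductase genes differed in how far pools of a group lay apart. The SD within groups was 0.344 on the log2 scale for hmgcra, above 87.1% of tested genes, and 0.087 for hmgcrb, above 9.93% of them.

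The other genes of the mevalonate stretch gave small positive values in glucose that did not pass the test. The thiolase gene acat2, whose enzyme joins acetyl-CoA units, ran from 47.0 to 62.5 CPM in glucose and 48.4 to 60.5 CPM in FFA, against 44.7 to 47.9 CPM in control, with fold changes of 0.23 ± 0.0788 in glucose and 0.20 ± 0.0787 in FFA (adjusted p = 0.0734 and 0.346). FFA and control pools did not overlap for it, and glucose replicate 4 kept glucose from standing clear of control. The kinase gene mvk, which phosphorylates mevalonate, ran from 8.23 to 10.5 CPM in glucose and 7.23 to 11.8 CPM in FFA, against 6.54 to 8.48 CPM in control, at 0.30 ± 0.108 and 0.29 ± 0.108 (adjusted p = 0.0857 and 0.29). The next kinase gene, pmvk, ran from 6.66 to 8.99 CPM in glucose and 5.91 to 8.95 CPM in FFA, against 5.5 to 7.69 CPM in control, at 0.24 ± 0.124 and 0.05 ± 0.125 (adjusted p = 0.24 and 0.973). The decarboxylase gene mvda ran from 24.2 to 35.4 CPM in glucose and 19.3 to 29.6 CPM in FFA, against 21.8 to 24.4 CPM in control, at 0.29 ± 0.116 and 0.03 ± 0.117 (adjusted p = 0.121 and 0.987). All 3 of these genes overlapped between each treatment and control. Of the prenyl synthases, fdps, which makes farnesyl diphosphate for sterols and prenyl groups, ran from 101 to 127 CPM in glucose and 94.6 to 135 CPM in FFA, against 92.1 to 100.1 CPM in control. Glucose and control did not overlap, and the fold change of 0.25 ± 0.0809 had an adjusted p = 0.0522, just short of the threshold. The geranylgeranyl diphosphate synthase gene ggps1, off the sterol route, ran from 29.3 to 45.3 CPM in glucose and 31.0 to 40.6 CPM in FFA, against 28.8 to 39.9 CPM in control, at 0.04 ± 0.12 in glucose and 0.02 ± 0.12 in FFA (adjusted p = 0.847 and 0.99).

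The squalene stretch commits the route to sterols. Squalene epoxidase, encoded by sqlea, catalyses the first oxygenation and is a second control point of the mammalian pathway. It had the highest fold change of the 27 genes in glucose, at 0.67 ± 0.213 (1.6-fold, adjusted p = 0.0504), which did not pass. Its levels were 25.5, 40.6, 36.4, 21.97, 24.8 and 28.3 CPM in glucose, 12.3, 18.8, 22.5, 15.9, 17.4 and 30.7 CPM in FFA, and 20.5, 22.4, 15.2, 13.6 and 20.8 CPM in control. In 5 of 6 glucose pools sqlea was above every control pool; in FFA, replicate 6 alone was well above control and replicate 1 was below it. In FFA the gene stood at 0.08 ± 0.213 over control (adjusted p = 0.978) and at -0.60 ± 0.201 against glucose (adjusted p = 0.0505). The glucose value was called by DESeq2 (0.66, adjusted p = 0.0237) and without glucose replicate 4 (0.75, adjusted p = 0.0287). That pool was the lowest glucose pool for sqlea, so leaving it out raises the value by construction. The squalene synthase gene fdft1 ran from 14.9 to 22.02 CPM in glucose and 11.1 to 18.5 CPM in FFA, against 10.8 to 16.2 CPM in control, with fold changes of 0.33 ± 0.139 and -0.06 ± 0.14 (adjusted p = 0.14 and 0.975). The lanosterol synthase gene lss ran from 24.0 to 36.7 CPM in glucose and 21.0 to 35.2 CPM in FFA, against 20.7 to 28.6 CPM in control, at 0.25 ± 0.131 and 0.17 ± 0.131 (adjusted p = 0.245 and 0.844). Neither gene was called.

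**Figure D3:**
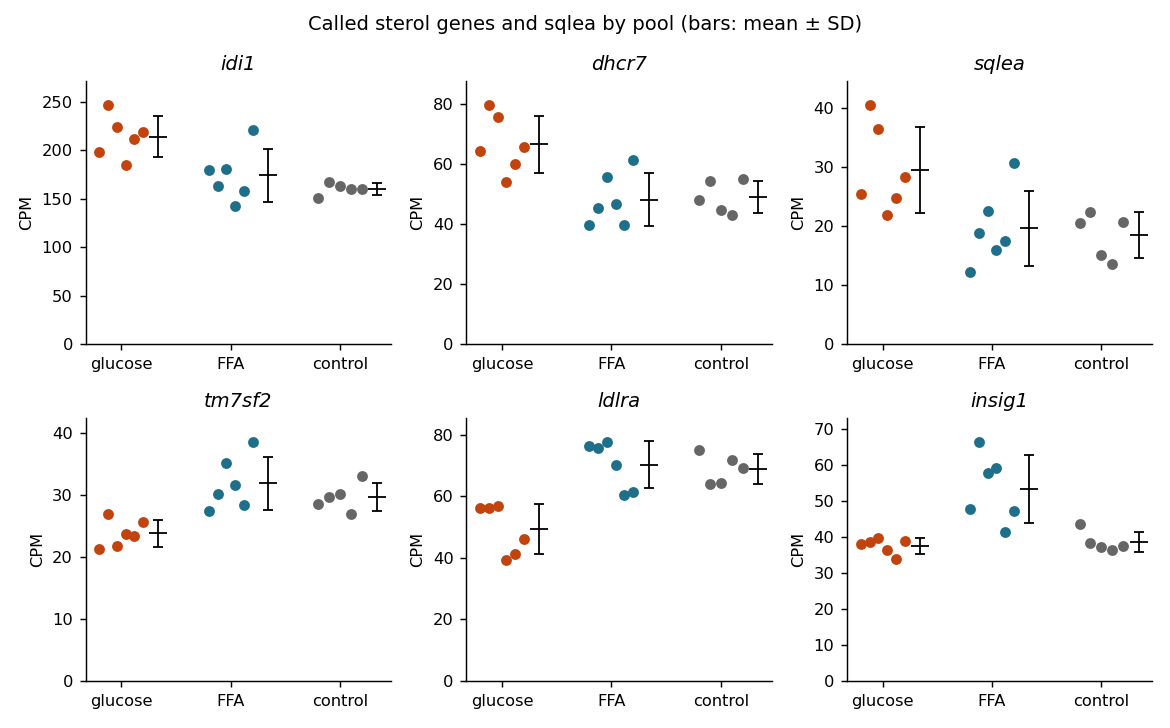
CPM of 6 genes in each pool, in the order of replicate number within a group, with the mean and SD beside the points (n = 6 glucose, 6 FFA, 5 control; axes start at 0). All glucose pools lie above all control pools for idi1 and below them for ldlra, and the FFA pools of insig1 run from 41.3 to 66.4 CPM.

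From lanosterol on, a series of demethylations, reductions and isomerizations ends in cholesterol. The last enzyme of one arm, 7-dehydrocholesterol reductase (dhcr7), measured 64.4, 79.7, 75.7, 54.2, 60.2 and 65.7 CPM in glucose, 39.9, 45.4, 55.7, 46.7, 39.7 and 61.5 CPM in FFA, and 48.0, 54.4, 44.8, 43.2 and 55.1 CPM in control. Glucose pools were above the controls except replicate 4, which fell among them, and FFA pools straddled the controls. The gene rose in glucose by 0.44 ± 0.122 (1.36-fold, adjusted p = 0.0283) and was lower in FFA than in glucose by a fold change of -0.47 ± 0.116 (adjusted p = 0.0103). Its value in FFA over control was -0.03 ± 0.122 (adjusted p = 0.985). The glucose call ended when any of control replicates 1, 3 and 4 and glucose replicates 2 and 3 was left out (adjusted p 0.0558 to 0.0681), while the call between the treatments stood without any single library.

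The lanosterol demethylase product is reduced at carbon 14 by 2 enzymes in vertebrates, TM7SF2 and the lamin B receptor LBR, which is also a protein of the nuclear envelope. Here tm7sf2 was the one enzyme of the 22 with a glucose value below 0. Its levels were 21.3, 26.96, 21.8, 23.6, 23.5 and 25.7 CPM in glucose, 27.4, 30.1, 35.2, 31.6, 28.4 and 38.6 CPM in FFA, and 28.5, 29.7, 30.2, 26.9 and 33.0 CPM in control. Every glucose pool was below every FFA pool, and glucose replicate 2 alone reached the lowest control. The gene fell in glucose by 0.32 ± 0.09 (a log2 fold change, adjusted p = 0.0309) and was higher in FFA than in glucose by 0.42 ± 0.0861 (adjusted p = 0.00301), with 0.10 ± 0.0896 in FFA over control (adjusted p = 0.877). The fall in glucose was not called when any of control replicates 2, 3 and 6 and glucose replicates 1, 3 and 5 was left out (adjusted p 0.0562 to 0.0832), nor without control replicates 1 and 2 and glucose replicate 4 together (0.0792). Those 3 pools were left out as a set fixed by name, not by a rule computed here, and control replicates 3, 4 and 6 remained. The 3 pools had the highest photoreceptor marker sums (7372, 5639 and 6380 CPM). The paired gene lbr ran from 80.1 to 86.1 CPM in glucose and 76.5 to 93.3 CPM in FFA, against 74.9 to 77.5 CPM in control. Glucose and control did not overlap for it, at a fold change of 0.12 ± 0.0478 that was not called (adjusted p = 0.12); its spread within groups was above that of only 3.24% of tested genes.

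The remaining sterol enzymes were not called in any comparison, and for each of the 6 both treatments overlapped with control. The lanosterol demethylase gene cyp51 ran from 77.6 to 118 CPM in glucose and 69.1 to 112 CPM in FFA, against 71.5 to 81.4 CPM in control, with fold changes of 0.29 ± 0.125 and 0.11 ± 0.125 (adjusted p = 0.156 and 0.923). The gene msmo1, whose enzyme oxidizes the methyl groups at carbon 4, ran from 45.8 to 74.8 CPM in glucose and 37.6 to 73.9 CPM in FFA, against 44.2 to 53.3 CPM in control, at 0.28 ± 0.152 and 0.02 ± 0.152 (adjusted p = 0.259 and 0.994). The decarboxylase gene nsdhl, which acts at the same carbon, ran from 23.9 to 33.7 CPM in glucose and 22.3 to 34.5 CPM in FFA, against 23.0 to 27.3 CPM in control, at 0.20 ± 0.112 and 0.03 ± 0.112 (adjusted p = 0.278 and 0.981). For all 3 FFA replicate 6 was the highest FFA pool. The ketoreductase gene hsd17b7 ran from 4.77 to 7.62 CPM in glucose and 2.52 to 6.15 CPM in FFA, against 4.17 to 4.92 CPM in control, at 0.34 ± 0.181 and -0.01 ± 0.183 (adjusted p = 0.255 and 0.997). The isomerase gene ebp ran from 20.5 to 31.9 CPM in glucose and 17.7 to 31.7 CPM in FFA, against 18.3 to 23.6 CPM in control, at 0.30 ± 0.143 and 0.14 ± 0.143 (adjusted p = 0.201 and 0.915). The desaturase gene sc5d ran from 22.5 to 33.3 CPM in glucose and 20.5 to 33.1 CPM in FFA, against 23.4 to 28.3 CPM in control, at 0.03 ± 0.126 and -0.05 ± 0.126 (adjusted p = 0.895 and 0.978). FFA replicate 6 was again the highest FFA pool for these 3.

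Inside each group the same pools were high or low for many enzymes. FFA replicate 6 was the highest FFA pool for 18 of the 22 enzymes and replicate 1 the lowest for 14. Among glucose pools replicate 2 was highest for 16 and replicate 4 lowest for 13. Among control pools replicate 6 was highest for 8 and replicate 4 lowest for 11. Control replicate 6 was above the mean of its own group for 19 enzymes and control replicate 4 for 3. The matching counts were 20 for FFA replicate 6, 3 for FFA replicate 1, 19 for glucose replicate 2 and 4 for glucose replicate 4. The summed enzyme level ran from 1191 to 1582 CPM in glucose and 1005 to 1489 CPM in FFA, against 1014 to 1188 CPM in control. Every glucose sum was thus above every control sum, although glucose replicate 4 exceeded control replicate 6 by little. Of these 2 sums idi1, which did not overlap by itself, made up 184 and 160.1 CPM. The order of the 2 pools therefore depended on idi1 and is not a property of all 22 enzymes. Taken as the median log2 difference of the 22 enzymes from the control mean, glucose pools ran from 0.0567 (replicate 4) to 0.453 (replicate 2), FFA pools from -0.152 (replicate 1) to 0.436 (replicate 6) and control pools from -0.081 to 0.0884. FFA replicate 6 therefore lay at the level of the highest glucose pool.

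The share of counts outside genes, which ran from 29.9 to 36.6% over the 17 libraries, was 30.7% in glucose replicate 2, 36.2% in glucose replicate 4, 31.1% in FFA replicate 6, 32.3% in FFA replicate 1 and 29.9% in control replicate 4. In glucose the pool with the lowest enzymes had the highest share, while in control the pool with the lowest enzymes had the lowest share. With that share in the fit as a covariate the median of the 27 genes in glucose over control was 0.18, with 3 genes called higher and 2 lower. Calls over all genes rose as well, to 2522 with the covariate from 1474 in the main fit.

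**Figure D4:**
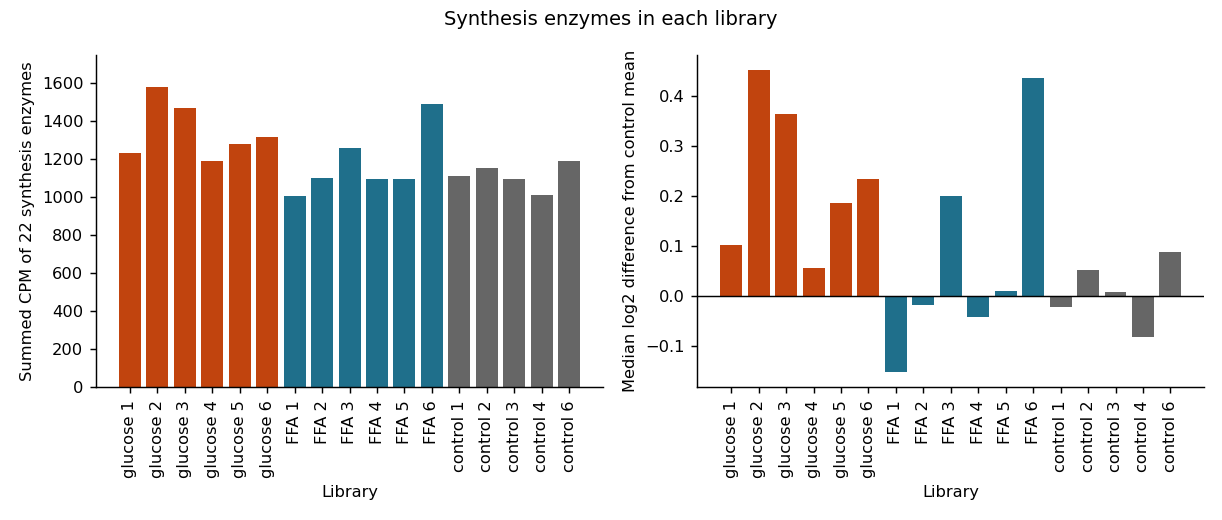
Summed CPM of the 22 synthesis enzymes in each library (left, axis from 0) and the median over those enzymes of the log2 difference from the control mean (right). Glucose replicates 2 and 3 and FFA replicate 6 stand highest, and FFA replicate 1 lowest on the right.

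Of the 2 genes of uptake and transport, ldlra was called lower in glucose and stard4 was not called. The LDL receptor gene ldlra, a classical SREBP2 target in mammals, measured 56.3, 56.2, 56.8, 39.3, 41.4 and 46.1 CPM in glucose, 76.3, 75.8, 77.8, 70.2, 60.5 and 61.3 CPM in FFA, and 75.1, 63.9, 64.4, 71.7 and 69.2 CPM in control. No glucose pool reached the lowest pool of either other group, and FFA and control pools overlapped throughout. The gene fell in glucose by 0.48 ± 0.104 (a log2 fold change, 0.717 of control, adjusted p = 0.00693), stood at 0.03 ± 0.103 in FFA over control (adjusted p = 0.981) and was higher in FFA than in glucose by 0.51 ± 0.0992 (adjusted p = 0.00213). Both calls stood without any single library and under the 10 alternatives that kept the title groups. FFA replicate 6, the FFA pool with the highest enzymes, was among the 2 lowest FFA pools for ldlra. The cytosolic sterol carrier gene stard4 ran from 8.07 to 9.54 CPM in glucose and 8.53 to 11.7 CPM in FFA, against 8.28 to 13.1 CPM in control, with fold changes of -0.26 ± 0.108 and -0.19 ± 0.108 (adjusted p = 0.148 and 0.628). Without control replicate 4 stard4 was called lower in glucose (-0.33, adjusted p = 0.0432). That pool was the lowest control for stard4, so leaving it out widens the difference by construction.

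Among the regulators insig1 was called in FFA. It was 37.9, 38.5, 39.8, 36.2, 33.8 and 38.9 CPM in glucose, 47.8, 66.4, 57.7, 59.23, 41.3 and 47.1 CPM in FFA, and 43.4, 38.4, 37.2, 36.3 and 37.4 CPM in control. Of the FFA pools 5 were above every control pool and replicate 5 was below control replicate 1, while glucose and control pools overlapped. The gene rose in FFA by 0.47 ± 0.0994 over control (1.38-fold, adjusted p = 0.0187) and was higher in FFA than in glucose by 0.51 ± 0.0946 (adjusted p = 0.00158). In glucose over control it stood at -0.04 ± 0.0995 (adjusted p = 0.841). The FFA call ended without control replicates 3 or 6 or FFA replicate 4 (adjusted p 0.0513 to 0.0584) and when the fit held just these 2 groups (0.0811). FFA replicate 6, the highest FFA pool for most enzymes, was the second lowest for insig1.

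The other regulators were not called. SREBP2 itself, srebf2, measured 128, 139, 124, 164, 135 and 121 CPM in glucose, 108, 110.1, 119, 137, 137 and 118 CPM in FFA, and 154, 142, 108, 113 and 143 CPM in control. The groups overlapped throughout, with fold changes of 0.03 ± 0.102 in glucose (adjusted p = 0.863), -0.12 ± 0.102 in FFA (adjusted p = 0.871) and -0.16 ± 0.0974 for FFA against glucose (adjusted p = 0.295). With the share of counts outside genes as a covariate the last was called, at -0.24 (adjusted p = 0.00621). That fit called 3978 genes in either direction, against 2299 in the main fit, and 6 listed genes lower, against 2. The second retention gene insig2 ran from 10.7 to 13.9 CPM in glucose and 11.3 to 14.2 CPM in FFA, against 10.5 to 14.2 CPM in control, with values of -0.00290 in glucose and 0.09 in FFA. Of 13 further genes of sterol sensing and SREBP processing, among them the proteases mbtps1 and mbtps2 that cleave SREBP, none was called in any comparison by edgeR. Unadjusted p-values under 0.05 numbered 1 in glucose, 4 in FFA and 2 in FFA against glucose, where all genes gave 25.1%, 10.2% and 30.8%.

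Genes that use or handle the products of the pathway were described by lists. Of 18 genes of the isoprenoid branch, which feeds ubiquinone, dolichol and protein prenylation, 5 rose and 0 fell in glucose (median 0.10), 0 and 0 in FFA (median -0.04), and 0 rose and 8 fell in FFA against glucose (median -0.15). Of all tested genes 5.87% were called higher and 5.02% lower in glucose, 1.1% and 0.716% in FFA, and 7.98% and 9% in FFA against glucose. Examples in glucose over control were coq2, which attaches the prenyl tail of ubiquinone (22.8 ± 1.86 CPM in glucose, n = 6, against 16.9 ± 1.74 in control, n = 5, 0.43 ± 0.0753, adjusted p = 0.00155), the ubiquinone methyltransferase gene coq5 (0.38 ± 0.0668, adjusted p = 0.00143) and the prenyltransferase subunit gene rabggtb (0.33 ± 0.0546, adjusted p = 0.000806). These 3 calls stood without any single library. The tail synthase gene pdss1 rose by 0.26 ± 0.058 (adjusted p = 0.00866), and its call ended without control replicates 1 and 2 and glucose replicate 4 together (0.0605). The fifth call, nus1, which takes part in dolichol synthesis, stood in 4 of 11 fits that left out a library and ended when any of control replicates 1, 3 and 6 and glucose replicates 1, 2, 3 and 5 was dropped (adjusted p 0.054 to 0.0815). Of the 8 calls in FFA against glucose, pdss2 stood in 5 of 12 such fits and coq9 in 4 of 12, and trit1 ended without FFA replicate 3 (0.0515).

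Of 10 genes that turn cholesterol into bile acids and oxysterols, 0 rose and 4 fell in glucose (cyp7a1, ch25h, cyp27a1.4 and cyp8b1; median -0.25), where 5.02% of all genes were called lower. The calls of cyp27a1.4 and cyp8b1 each stood in 5 of 11 fits that left out a library. Both ended when control replicate 3, 4 or 6 or glucose replicate 5 was dropped, which left 2 of the 4 calls; cyp27a1.4 also ended on dropping glucose replicate 1 or 4 (over all 6 fits 0.0514 to 0.0837), and cyp8b1 on dropping glucose replicate 6 or control replicate 1 (0.0519 to 0.0781). In FFA none of the 10 was called in either direction by edgeR, with 0 at an unadjusted p under 0.05. In FFA against glucose 4 of the 10 rose and 1 fell, where 7.98% of all genes were called higher and 9% lower. Cholesterol 7-alpha-hydroxylase (cyp7a1), the rate-limiting enzyme of bile acid synthesis, measured 46.7, 50.8, 49.2, 35.9, 35.1 and 33.9 CPM in glucose, 78.6, 55.0, 69.0, 63.1, 68.5 and 69.1 CPM in FFA, and 66.9, 64.4, 69.9, 65.7 and 76.3 CPM in control. No glucose pool overlapped with a pool of another group. It fell in glucose by 0.71 ± 0.112 (adjusted p = 0.000566) and was higher in FFA than in glucose by 0.68 ± 0.107 (adjusted p = 0.000426), and both calls stood without any single library. The cholesterol 25-hydroxylase gene ch25h, a source of 25-hydroxycholesterol, fell in glucose by 1.61 ± 0.361 (adjusted p = 0.00866), on few reads (3 to 12 counts per glucose library, 16 to 36 per control library), at 0.562 ± 0.206 CPM in glucose (n = 6) against 1.79 ± 0.754 CPM in control (n = 5).

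Counts higher and lower in the remaining lists were small. Efflux genes had 0 and 2 of 10 in glucose (abcg5 and apoeb), and ester genes 0 and 1 of 6 (lcat). A mixed list of other SREBP targets with mylipa and mylipb, which are not taken as SREBP targets here, had 2 and 2 of 10. Its calls were fads2 and aacs higher, and lpin1 and mylipa lower. Uptake and lysosome genes had 0 and 1 of 10, the 1 being scarb1, an HDL receptor (-0.39 ± 0.101, adjusted p = 0.0189). Of all genes 5.87% were called higher and 5.02% lower in glucose. The calls of scarb1, fads2, lpin1 and mylipa stood without any single library, and the others did not. That of abcg5 ended when control replicate 3 or 6 or glucose replicate 5 was dropped (adjusted p 0.0519 to 0.0576), and that of apoeb with control replicate 3, 4 or 6 or glucose replicate 1, 2 or 6 dropped (0.0516 to 0.0907). The lcat call ended when control replicate 3 or 4 or glucose replicate 1 was dropped (adjusted p 0.0566 to 0.0746), so that none of the efflux and ester calls was left without control replicate 3. The aacs call stood in 2 of 11 such fits, those without control replicate 1 or glucose replicate 1 (0.0595 to 0.107 in the others), and under 2 of 10 other alternatives. In FFA the counts were 0 and 0 for efflux, 1 and 0 for esters, and 0 and 0 for uptake and lysosome. The mixed list had 0 and 1, and the 1 was mylipb rather than an SREBP target. Of all genes 1.1% were called higher and 0.716% lower in FFA. The mylipb call stood in 2 of 11 fits, those without control replicate 1 or 2, and ended in the rest (adjusted p 0.0683 to 0.126). The ester gene was the sterol acyltransferase soat1, which stores cholesterol as ester (5.56 ± 1.53 CPM in FFA, n = 6, against 3.46 ± 0.401 CPM in control, n = 5, 0.69 ± 0.169, adjusted p = 0.0466). That call stood in 2 of 11 fits that left out a library, without control replicate 4 and without FFA replicate 3, and ended in the other 9 (adjusted p 0.0656 to 0.129).

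**Figure D5:**
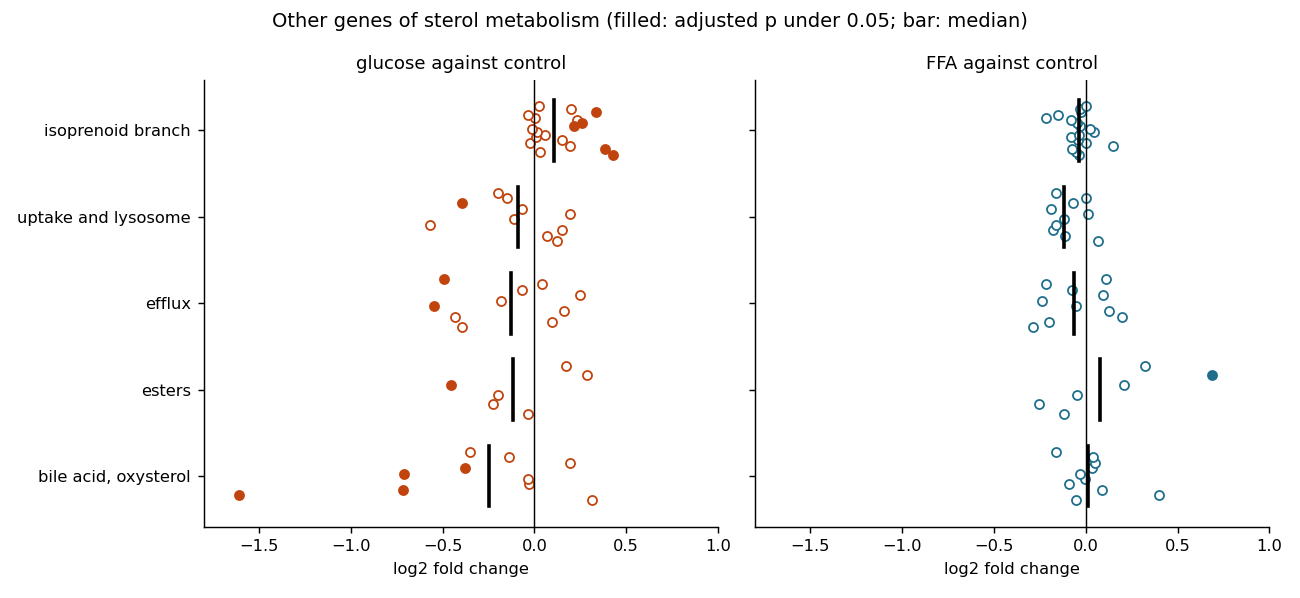
Log2 fold change of each tested gene in 5 lists around the pathway, in glucose against control (left) and FFA against control (right); filled points have an adjusted p under 0.05 and the black bar is the list's median. In glucose the filled points lie right of 0 for the isoprenoid branch and left of 0 for the other 4 lists, and the one filled point in FFA is soat1.

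Markers of intestine and exocrine pancreas were lower in glucose, while liver markers lay on both sides of 0 with a median of -0.0129. Against these counts stand 5.87% of all genes called higher and 5.02% lower in glucose, and 1.1% and 0.716% in FFA. Of 9 tested intestine markers 8 were called lower in glucose and 4 in FFA, and their summed level ran from 597 to 761 CPM in glucose and 787 to 1004 CPM in FFA, against 958 to 1176 CPM in control. In FFA the calls of fabp6 and slc6a19b both ended when control replicate 1, 3 or 6 or FFA replicate 2 or 4 was dropped (adjusted p 0.0579 to 0.0834), which left 2 of the 4; in glucose fabp2 ended without control replicate 3 (0.0518). Of 12 exocrine pancreas markers 10 were lower in glucose and 5 in FFA, with sums of 1534 to 2103 CPM in glucose and 2547 to 3571 CPM in FFA, against 3449 to 4591 CPM in control. Of 10 liver markers 1 was lower in glucose, fabp10a, and none in FFA, with sums of 4802 to 7947 CPM in glucose and 5347 to 6479 CPM in FFA, against 4980 to 7365 CPM in control. In FFA 7 of the 10 liver markers lay below 0 and 3 above it (median -0.10). At an unadjusted edgeR p under 0.05 there were 4 of them in FFA, and 10.2% of all genes. Of 6 tested erythrocyte markers 3 were higher in glucose and 1 in FFA, with sums of 1010 to 1535 CPM in glucose and 820 to 1123 CPM in FFA, against 781 to 1163 CPM in control. Of 6 tested genes of yolk protein and lipoprotein assembly 3 were higher in glucose and none in FFA, with sums of 7090 to 9984 CPM in glucose and 8297 to 10085 CPM in FFA, against 7711 to 10498 CPM in control. Single omissions also ended the FFA calls of cpa4 (pancreas; control replicates 3 and 4, FFA replicates 3, 4 and 5), fabp6 (FFA replicates 3 and 5) and slc6a19b (FFA replicate 1), with adjusted p 0.0505 to 0.0685. In glucose they ended those of hbae3 (erythrocyte; control replicates 1, 2 and 6, glucose replicates 2, 5 and 6) and apoa4a (yolk list; control replicates 1, 3 and 6, glucose replicates 3 and 5), with adjusted p 0.0508 to 0.0643. Muscle had 1 of 11 called higher in glucose, glia 1 of 8 called lower, and neurons (8) and photoreceptors (11) none. In glucose all 11 muscle markers lay above 0 (median 0.15) and all 11 photoreceptor markers below 0 (median -0.53). Of all tested genes 49.4% lay above 0. Photoreceptor sums ran from 1120 to 6380 CPM in glucose and 1835 to 4843 CPM in FFA, against 1339 to 7372 CPM in control. The pool at 6380 CPM was glucose replicate 4, the glucose pool with the lowest enzymes. Control replicates 1 and 2 had 7372 and 5639 CPM. In FFA against glucose 7.98% of all genes were called higher and 9% lower. There 8 of 9 intestine and 10 of 12 exocrine pancreas markers were called higher, and 0 lower. Higher and lower were 1 and 5 of 6 for erythrocyte, 1 and 2 of 6 for yolk, and 1 and 1 of 10 for liver. Glia had 1 of 8 higher, and muscle, neurons and photoreceptors none either way. The part of these tissues in the values of ldlra, cyp7a1, insig1 and the enzymes was not tested.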

How the data were processed

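The authors deposited 1 table per pool of unnormalized whole-number counts per gene, with 2 lines that name no gene; these took 29.9 to 36.6% (no feature) and 0.213 to 0.252% (ambiguous) of counts and stayed out of totals and tests. STAR, DESeq2 and danRer7 are named, without roles, per the submitters' processing notes; the counting tool, the annotation and the handling of multi-mapped reads are not stated there, so paralogs (hmgcra and hmgcrb, insig1 and insig2) are given as counted. Per the labels' protocols libraries were stranded and made from poly(A) RNA. Genome coordinates and sequences were not used here.

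Counts were filtered with filterByExpr (minimum count 10), scaled by TMM and tested with edgeR 4.0.16 (R 4.3.3) in 1 fit of 3 group means over all 17 libraries (14 residual degrees of freedom). The fit was also run on simulated counts with known changes. Those counts were drawn independently, without differences shared by many genes of a pool, so the run does not measure error rates in these data. CPM were computed from the deposited counts. Alternatives used limma 3.58.1, DESeq2 1.42.0 and other scalings, filters, sample sets and groupings. The labels do not say that pools came from separate clutches, and the p-values then reflect only how far these pools differ, which may be technical.

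The members and lists were chosen with earlier results of these data known. Every member is named with its range; values in every library are given for members called in any comparison, for srebf2, insig1, ldlra, hmgcra and hmgcrb, and for the member with the greatest fold change in a comparison. Of other lists at most the 4 called genes with the smallest p are named. Pool values of cyp7a1, and the names nus1, pdss2, coq9, trit1 and single markers, were chosen after their values were seen. One result of a list of further genes is not reported here.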

Additional observations from a re-analysis of the deposited data

Results flagged for a closer look

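In 3 of 81 sets of a gene and a group, 1 pool lay far from the others, by a rule that chance meets in about 1 of 20 sets. The sterol decarboxylase gene nsdhl had 34.5 CPM in FFA replicate 6, where the other 5 FFA pools had 22.3 to 26.9 CPM. The sterol carrier gene stard4 had 11.7 CPM in FFA replicate 5, where the other FFA pools had 8.53 to 9.2 CPM. The regulator gene insig1 had 43.4 CPM in control replicate 1, where the other controls had 36.3 to 38.4 CPM.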

How the results depend on the processing

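Of 1809 values of a gene under an alternative (27 genes, 3 comparisons), 1739 kept their direction and side of the threshold or were called in neither fit, 25 lost a call, 36 gained one and 9 reversed, all 9 with groups from the treatment tag; 118 of the values called in neither fit changed sign. The tags are not a clean exchange of the treatments. They place glucose replicate 1 among the controls, and FFA replicate 1 stays in FFA beside glucose replicates 2 to 6. Under the tags glucose against control called 106 genes, with 1 and 0 listed genes higher and lower and a median of 0.0552. There tm7sf2 stood at 0.21, dhcr7 at -0.0553, ldlra at 0.0509 and insig1 at 0.50. Under the tags FFA against control called 1 gene and 0 listed genes higher. FFA against glucose called 511 genes under the tags, with 0 listed genes higher and a median of 0.0781, and idi1 stood at 0.28, tm7sf2 at -0.40, dhcr7 at 0.33, ldlra at -0.39 and insig1 at -0.47.

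Listed genes called higher in glucose were 2, and 4 with DESeq2, with the replicate block and when just the 2 groups were fitted. Over all genes, both directions together, those fits called 1727, 910 and 1008, and the main fit 1474. Listed genes called lower were 2, and 1 without control replicates 1 and 2 and glucose replicate 4, where 1189 genes were called. Listed genes called higher in FFA over control were 1, and 0 when just the 2 groups were fitted. Listed genes called lower in FFA against glucose were 2, and 5 with DESeq2 and with limma-voom. They were 1 with the 2 groups alone, 4 with the replicate block, 6 with the no-feature covariate and 4 without the 3 libraries. Over all genes, both directions together, the main fit of that comparison called 2299. DESeq2 called 2607, limma-voom 2253, the 2 groups alone 2483, the replicate block 1629, the covariate 3978 and the fit without the 3 libraries 3738. Leaving out 1 library gave 1 to 5 genes higher (5 without glucose replicate 4) and 1 to 3 lower in glucose, 0 to 1 higher and 0 to 0 lower in FFA, and 3 to 3 higher and 1 to 8 lower in FFA against glucose, with medians of 0.20 to 0.28, 0.00853 to 0.11 and -0.16 to -0.08. RLE scaling, library size alone, no filter and a mean of 5 CPM changed none of these member counts.

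Over all genes 1474, 246 and 2299 were called in glucose against control, FFA against control and FFA against glucose. The replicate block gave 910 and 118 for the comparisons with control, and the covariate 2522, 649 and 3978. FFA against control gave 381 with DESeq2, 162 with the 2 groups alone and 589 without the 3 libraries, which gave 3738 for FFA against glucose. Leaving out 1 library gave 1070 to 2019, 157 to 254 and 1654 to 2754. The cause of these changes was not tested. No label says what a replicate number marks. Deviations of same-numbered pools correlated at -0.76 to 0.52 over 16 pairs, and 2 of 17 libraries correlated best with their own number. Such correlations over all genes do not show whether same-numbered pools share a smaller difference. Under the replicate block the scarb1 call in glucose ended (adjusted p = 0.077). The mylipa call in glucose ended without control replicates 1 and 2 and glucose replicate 4 together (adjusted p = 0.0532). Of the 27 genes hsd17b7 had the fewest counts, 39 to 106 per library; of other genes given, ch25h had 3 to 53 and abcg5 31 to 83, and counting error weighs most for ch25h.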
